A study of Rattus norvegicus with 12 samples.

Results

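MiR-126 was measured in extracellular vesicles (EVs) with 3 of the 727 rat miRNA probes of a 3D-Gene oligo chip, namely rno-miR-126a-3p, rno-miR-126a-5p and rno-miR-126b. They were chosen by name, as all probes whose name after the species prefix starts with miR-126a or miR-126b, and no measured value entered the choice. The arrays held EV RNA of 4 kinds of cultured rat cells, with 3 arrays for each. Thy1-MCs are Thy1-positive mesenchymal cells that the methods isolate from livers injured with d-galactosamine, and the labels call them rat liver stem cells. Small hepatocytes (SHs), which are hepatic progenitor cells, and mature hepatocytes (MHs), labelled parenchymal cells, came from healthy livers. Mesenchymal stem cells (MSCs) came from bone marrow. All 4 released their EVs into FBS-free DMEM for 2 days. The labels give plastic dishes for Thy1-MCs and MSCs, hyaluronic acid for SHs and type I collagen for MHs, whereas the methods give collagen-coated dishes for Thy1-MCs. Kind of cell, culture surface and, for Thy1-MCs, prior injury cannot be told apart. Whether the 3 arrays of a group stand for independent cultures or rats is not stated, and each p-value reflects only how far these arrays scatter, possibly for technical reasons.

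MiR-126 is processed from an intron of Egfl7, a gene of endothelial cells. It is the miRNA most often used as a marker of endothelium and is also known from platelets. In mouse and zebrafish the 3p arm restrains Spred1 and Pik3r2 and so sustains VEGF signalling and vessel integrity. In mouse the 5p arm restrains Dlk1 and supports endothelial proliferation. The liver sinusoid is lined by endothelium, but none of the 4 cultures was a culture of endothelial cells. Both arms are cut from 1 hairpin, so a cell that makes one makes the other, although it may keep them unequally. rno-miR-126b is annotated on the opposite strand of the same locus.

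The mature sequences are shown because they set what each probe can bind. They are from RefSeq (GRCr8), which held 653 of the 727 miRNAs of the array, and capitals mark the seed, bases 2 to 8.
rno-miR-126a-3p: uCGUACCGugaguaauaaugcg
rno-miR-126a-5p: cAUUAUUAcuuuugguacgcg
rno-miR-126b: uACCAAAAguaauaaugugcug
rno-miR-199a-3p: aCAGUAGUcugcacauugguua
The 5p arm lies at chr3:29813182-29813202 and the 3p arm at chr3:29813219-29813240, both on the plus strand with 16 bases between them, inside the span of Egfl7. rno-miR-126b lies at chr3:29813177-29813198 on the minus strand and overlaps the 5p arm by 17 bases. No other mature miRNA of the table had the seed of any of the 3 members. The longest run that rno-miR-126b shares with the 3p arm is AGUAAUAAUG, 10 bases, and no other of the 653 array miRNAs with a sequence shared a longer run with the 3p arm. By whole-length edits the nearest of these 653 was rno-miR-101a-3p for the 3p arm, at 9 edits, and rno-miR-29a-5p for the 5p arm, at 8 edits. rno-miR-199a-3p, on chromosome 13, is shown for its detection pattern, described with the 3p arm.

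An array's background was the mean of its 1504 blank spots without the 5% at either end, and a probe was detected where its raw intensity exceeded that mean by 2 SD. The MH-EV arrays stood apart. Their first spike-in control read 5139 to 7915, against 28678 to 32905 on the other 9 arrays, and their blank-spot means were 59.8 to 77.9, against 96.8 to 136. They detected 425 to 528 miRNAs, against 174 to 359. Each value that sets MH-EVs against another group therefore depends on the scaling, and the part of array sensitivity in those values was not tested. Of the 727 miRNAs 387 were detected on all 3 arrays of at least 1 group and were tested, the 3p and 5p arms among them.

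The 3p arm was present in EVs of Thy1-MCs, MSCs and MHs and was not detected in SH-EVs. Its raw intensity in Thy1-MC-EVs was 156.3, 235.8 and 198.1, all above the detection limits of 109 to 144. In MSC-EVs it was 186.3, 269.2 and 156.6, and in MH-EVs it was 234.3, 215.2 and 155.0. In SH-EVs it was 132.6, 123.8 and 102.0, each under its array's limit, and within 9.22 of the blank-spot mean. These 3 arrays are therefore not well above background rather than measured levels. All 9 detected values also exceeded a stricter limit, set in the same way from the 675 spots that carry no probe. The signal was modest even where it was detected, at the 72.4th to 84.5th percentile of the miRNA probes of each array.

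**Figure D1:**
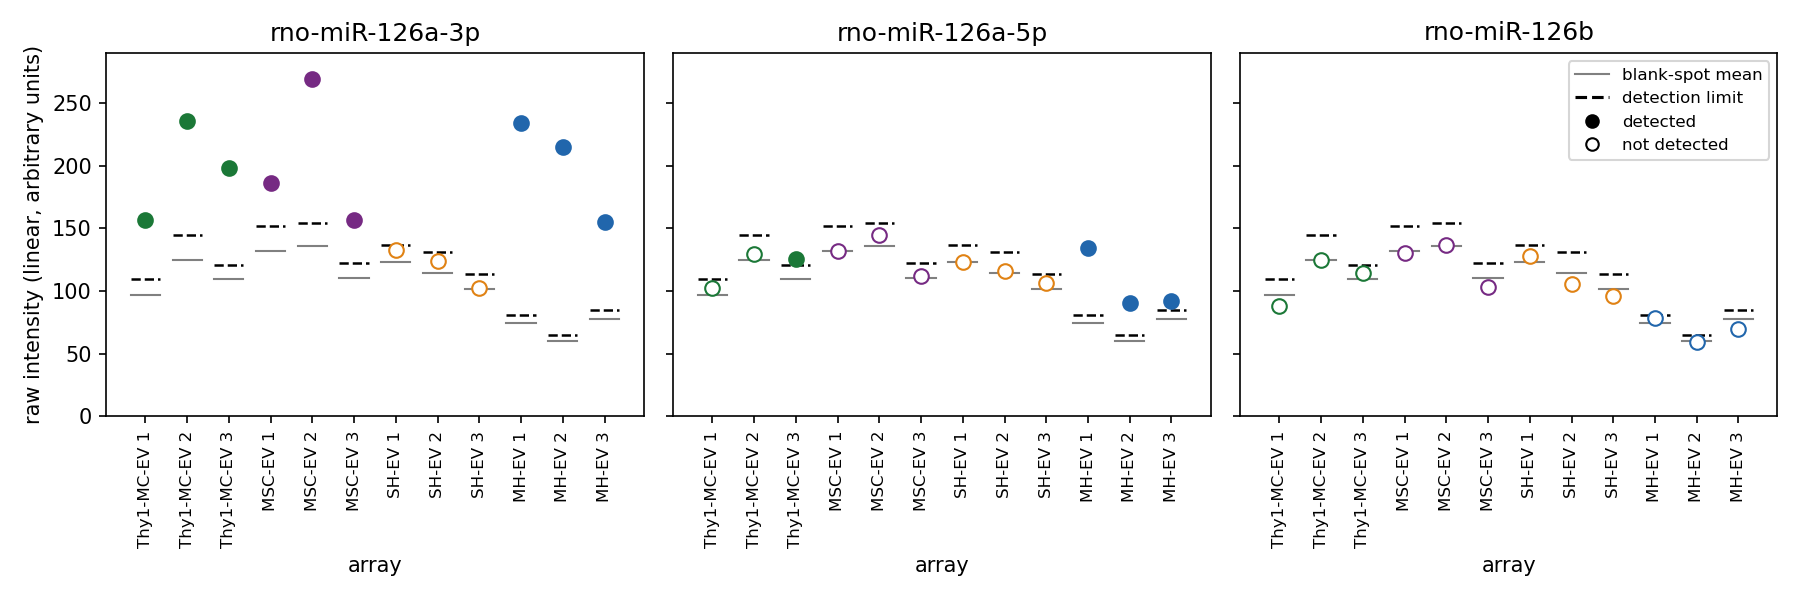
Raw intensity (linear, arbitrary units) of the 3 miR-126 probes on each of the 12 arrays. Filled points were detected and open points were not, the grey line is the blank-spot mean of the array and the dashed line its detection limit. The 3p arm lay above the limit on 9 arrays and under it on the 3 SH-EV arrays, the 5p arm lay above it on 4, and rno-miR-126b on 0.

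The authors' normalized intensity, in which each array's detected probes have a median of 25, put the 3p arm at 20.2, 24.4 and 26.9 in Thy1-MC-EVs. It was 18.1, 27.3 and 21.2 in MSC-EVs and 99.8, 91.6 and 31.3 in MH-EVs, and it was empty for SH-EVs. On that scale the 3p arm was close to the median detected miRNA in Thy1-MC-EVs and MSC-EVs and above it in MH-EVs. Detection on all 9 arrays outside SH-EVs together with none of the SH-EV arrays was rare. That pattern was taken from the 3p arm itself, so its rarity is only a description. Of the 727 miRNAs 2 had the pattern, rno-miR-126a-3p and rno-miR-199a-3p, a miRNA of stellate and other mesenchymal cells that was added after its values were seen. The raw intensity of rno-miR-199a-3p was 132.9 to 210.3 in Thy1-MC-EVs, 179.1 to 747.8 in MSC-EVs and 71.0 to 95.8 in MH-EVs, against 104.0 to 118.1 in SH-EVs. Its MH-EV values thus lay under its SH-EV values. They counted as detected against the lower limits of the MH-EV arrays, 64.7 to 84.9, beside 113 to 137 for SH-EVs. On the third MH-EV array the stricter limit from the spots without a probe was 98.9, above every MH-EV value of rno-miR-199a-3p. Under that limit rno-miR-199a-3p did not have the pattern.

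After background correction and quantile normalization the 3p arm averaged 7.77 ± 0.13 (SD, n = 3) on the log2 scale in MSC-EVs, 7.42 ± 0.32 in Thy1-MC-EVs, 7.25 ± 0.38 in MH-EVs and 6.20 ± 0.13 in SH-EVs. It differed across the 4 groups (F = 21.4, adjusted p = 0.000523, limma), as did 50.4% of the miRNAs tested. In the order of levels, MSC-EVs and Thy1-MC-EVs did not differ beyond their spread, nor did Thy1-MC-EVs and MH-EVs, and the step to SH-EVs was the one that passed. On the authors' scale MH-EVs came first, so the place of MH-EVs depends on the scaling and the last place of SH-EVs does not.

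**Figure D2:**
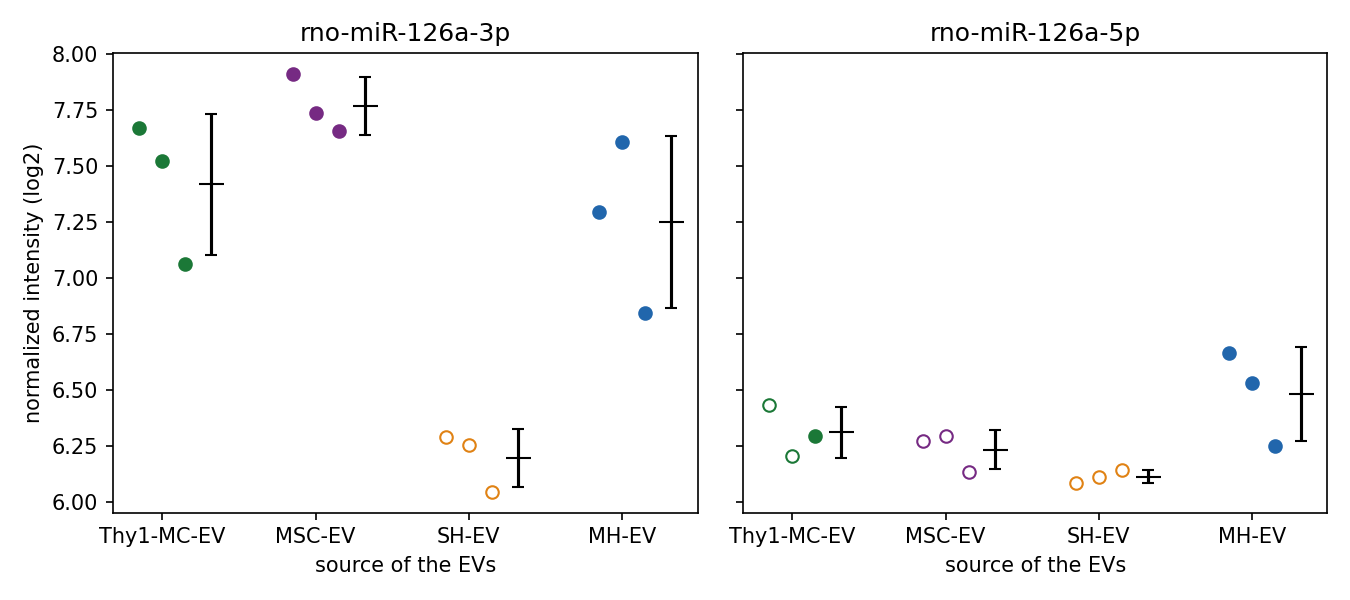
Normalized intensity (log2) of the 3p and 5p arms by source of the EVs, with 1 point per array (filled where detected) and the mean and SD of 3 arrays at its right. The 3p arm averaged 6.20 in SH-EVs and 7.25 to 7.77 in the other groups, whereas the 5p arm averaged 6.11 to 6.48 in all 4.

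With SH-EVs as the reference, EVs of Thy1-MCs held at least 2.08-fold more of the 3p arm in the main setting. That bound, like those below, sets the mean of the bright group against the lowest detected level of each SH-EV array. The fitted difference was 1.22 (standard error 0.21, adjusted p = 0.00279, limma), and 14% of the miRNAs tested passed in this comparison in either direction. The groups did not overlap, as was so for 35.7% of the miRNAs. In MSC-EVs the 3p arm was at least 2.65-fold higher than in SH-EVs, with a fitted difference of 1.57 (standard error 0.21, adjusted p = 0.000197, limma). In that comparison 27.6% of the miRNAs passed and 42.1% did not overlap. In MH-EVs it was at least 1.85-fold higher than in SH-EVs, with a fitted difference of -1.05 for SH-EVs over MH-EVs (standard error 0.21, adjusted p = 0.00302, limma), where 32.3% passed and 48.3% did not overlap. These 3 comparisons share the SH-EV arrays and are not independent of each other.

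The 3p arm was higher than in SH-EVs under each of the 23 other processing settings, in all 3 comparisons. It passed in 17 of them for Thy1-MC-EVs, in 22 for MSC-EVs and in 19 for MH-EVs, with the p of 1 setting left unadjusted. The log2 difference over SH-EVs was 0.91 to 4.40 for Thy1-MC-EVs and 0.89 to 4.96 for MSC-EVs over all settings, and that of SH-EVs over MH-EVs was -4.16 to -0.27. The upper values came from plain subtraction (4.40, 4.96 and -4.08) and from the authors' intensities (2.68, 2.57 and -4.16), in which the empty SH-EV values were set to the lowest value of their array. The size of the difference is therefore not fixed by these arrays. The bounds, 1.06, 1.41 and 0.89 on the log2 scale, hold for the main setting only. The smallest differences over all settings (0.91, 0.89 and -0.27) were smaller in size than these bounds. The call for Thy1-MC-EVs was lost with the arrays scaled to the median of the 150 miRNAs detected on all 12 (1.21, adjusted p = 0.0569, limma) and with the spike-in spots (1.08, adjusted p = 0.142, limma). The call for MH-EVs was lost with the median (-0.69, adjusted p = 0.163, limma). Relative to the median change of all miRNAs tested, the difference between Thy1-MC-EVs and SH-EVs was 0.91 to 4.48 over the main and 8 other background and scaling settings. No single array decided these calls, since each held with any 1 of the 12 arrays left out.

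Among the 3 groups in which the 3p arm was detected, no comparison passed after adjustment, and 1 had an unadjusted p under 0.05 (0.0296 for MSC-EVs and MH-EVs, limma). Thy1-MC-EVs and MSC-EVs differed by -0.35 (95% confidence interval -0.81 to 0.11, adjusted p = 0.254, limma), against 23.3% of miRNAs that passed and 39.5% that did not overlap. Thy1-MC-EVs and MH-EVs differed by 0.17 (interval -0.29 to 0.63, adjusted p = 0.571, limma), against 29.7% and 45%. The authors' intensities turned that difference to -1.48 (adjusted p = 0.0155, limma) and spike-in scaling to -2.34 (adjusted p = 2.5e-05, limma). MSC-EVs lay above MH-EVs by 0.52 (interval 0.06 to 0.98, adjusted p = 0.0740, limma) without overlap, against 35.1% and 49.9%. This difference was 1.01 with median scaling (adjusted p = 0.0236, limma) and -2.53 with the spike-in spots (adjusted p = 1.07e-05, limma). No direction can therefore be given for the difference itself. With the spike-in spots the median change of all miRNAs tested was -2.60 in this comparison. Relative to that median change, MSC-EVs over MH-EVs was positive in each background and scaling setting, at 0.07 to 1.47. Thy1-MC-EVs over MH-EVs was at -0.11 to 0.65 in the same way. These relative values were not tested.

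**Figure D3:**
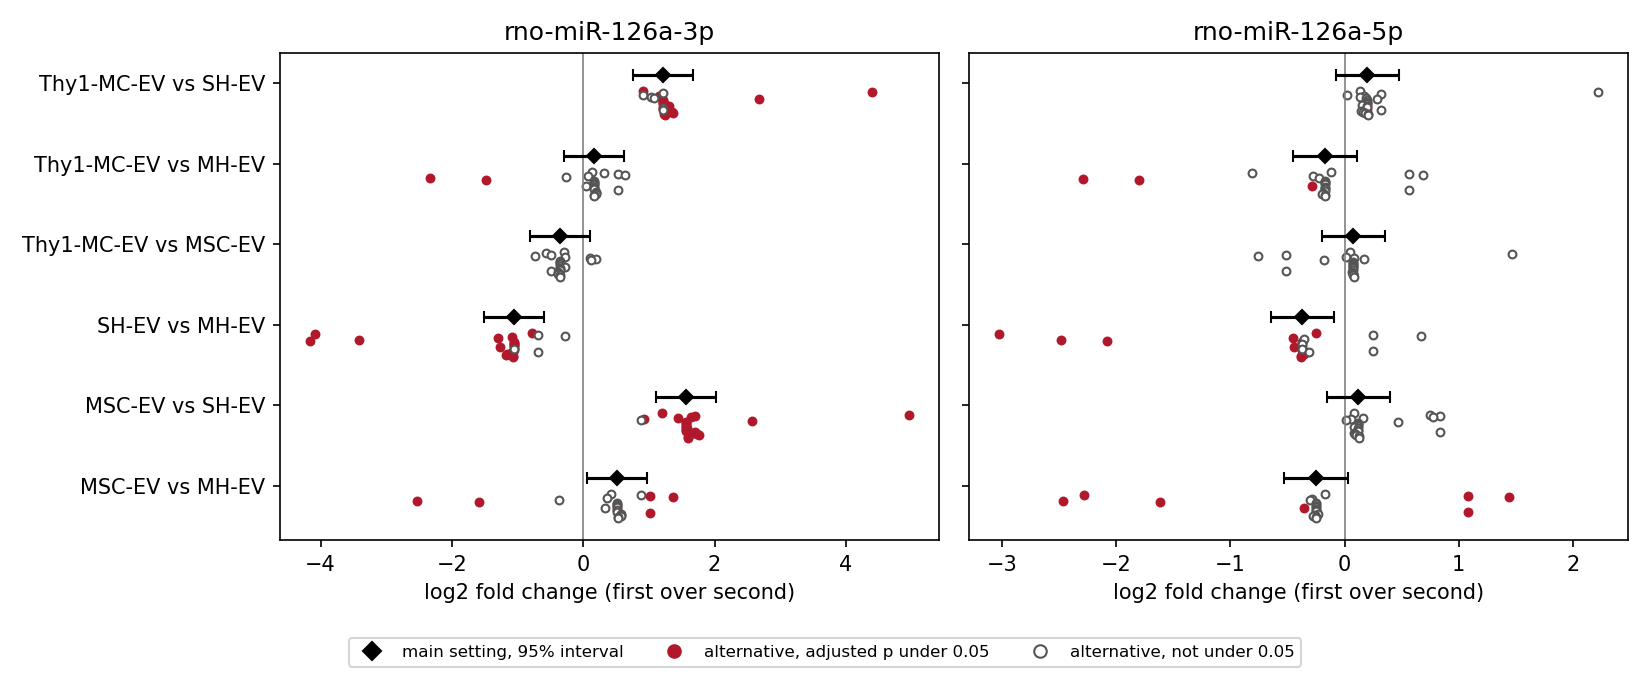
Log2 fold change of each arm in the 6 comparisons, first group over second. Diamonds are the main setting with its 95% interval, and circles are the other processing settings, filled where the adjusted p (for 1 setting the unadjusted p) was under 0.05. For the 3p arm all settings of the 3 comparisons with SH-EVs lie on 1 side of 0, whereas those with MH-EVs and without SH-EVs lie on both.

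The 5p arm was near background in most samples. Its raw intensity in MH-EVs was 134.2, 90.0 and 91.9, which was detected on all 3 arrays, with authors' normalized intensities of 37.4, 17.8 and 5.7. In Thy1-MC-EVs it was 102.7, 129.6 and 125.5, and the last of these alone was detected, by 4.88 above the limit. In MSC-EVs it was 132.2, 144.7 and 112.2 and in SH-EVs 123.3, 116.2 and 106.5, with none detected. Only the first 2 MH-EV values passed the stricter limit from the spots without a probe. The 5p arm thus entered the test through MH-EVs alone, and a difference from MH-EVs is in part fixed by that filter. Under the stricter limit it left the tested set and has no value.

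On the log2 scale the 5p arm averaged 6.48 ± 0.21 (SD, n = 3) in MH-EVs, 6.31 ± 0.11 in Thy1-MC-EVs, 6.23 ± 0.09 in MSC-EVs and 6.11 ± 0.03 in SH-EVs. The 4 groups did not pass together (F = 3.05, adjusted p = 0.120, limma). SH-EVs over MH-EVs gave a fitted -0.37 (standard error 0.13, adjusted p = 0.0439, limma), with at least 1.09-fold more in MH-EVs. In that comparison 32.3% of the miRNAs passed, and because of the filter this call is a description and not a result. Leaving out 1 array ended this call in 7 of 12 cases, with an adjusted p of up to 0.176 (limma), and median scaling turned it to 0.25 (adjusted p = 0.628, limma). Thy1-MC-EVs and SH-EVs did not overlap for the 5p arm, as was so for 35.7% of the miRNAs, but differed by 0.20 (interval -0.08 to 0.48, adjusted p = 0.314, limma). Of these values only 1, in Thy1-MC-EVs, was detected, so the lack of overlap is mostly one of background. The other 4 comparisons gave -0.25 to 0.12, with adjusted p of 0.146 to 0.672 (limma).

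rno-miR-126b was detected on 0 of 12 arrays and was not tested. Its raw intensity was 88.0 to 124.8 in Thy1-MC-EVs, 103.4 to 136.4 in MSC-EVs, 95.8 to 127.8 in SH-EVs and 59.3 to 78.2 in MH-EVs. Of the 727 miRNAs 142 were detected on no array. The run of 10 bases it shares with the 3p arm did not bring its probe above background on the arrays where the 3p arm was detected. rno-miR-101a-3p, the nearest to the 3p arm among the array miRNAs with a sequence, was detected on 0 Thy1-MC-EV arrays, 1 MSC-EV array and 3 MH-EV arrays. rno-miR-29a-5p, the nearest to the 5p arm, was detected on 2 MH-EV arrays and on none of the others.

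The 5p arm was detected on 4 of the 12 arrays, so no ratio of the arms, and no change of it between sources, can be given from these data.

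The miRNAs whose pattern over the 12 arrays was most like the 3p arm were rno-miR-125b-5p (r = 0.87), rno-miR-223-3p (r = 0.87), rno-miR-186-5p (r = 0.85), rno-miR-143-3p (r = 0.83) and rno-miR-335 (r = 0.82). MiR-223 is a miRNA of myeloid cells and platelets, and miR-143 one of smooth muscle and fibroblasts. All 5 had their lowest group mean in SH-EVs, which is in part fixed by their choice for correlation with the 3p arm. Of these, rno-miR-186-5p was detected on the 3 MH-EV arrays only, so its values on the other 9 arrays are background. For the 5p arm they were rno-miR-1298 (r = 0.90), rno-miR-3065-3p (r = 0.85), rno-miR-129-1-3p (r = 0.85), rno-miR-3072 (r = 0.84) and rno-miR-7578 (r = 0.83). All 5 had their highest group mean in MH-EVs. The 5p arm was detected on the 3 MH-EV arrays and 1 Thy1-MC-EV array, so most of its pattern is background. It entered the test through MH-EVs alone, so companions high in MH-EVs are in part fixed by that filter. rno-miR-7578 was detected on the 3 MH-EV arrays only and rno-miR-1298 on 6 of the 12 arrays. No contrast between the arms is drawn from these lists.

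**Figure D4:**
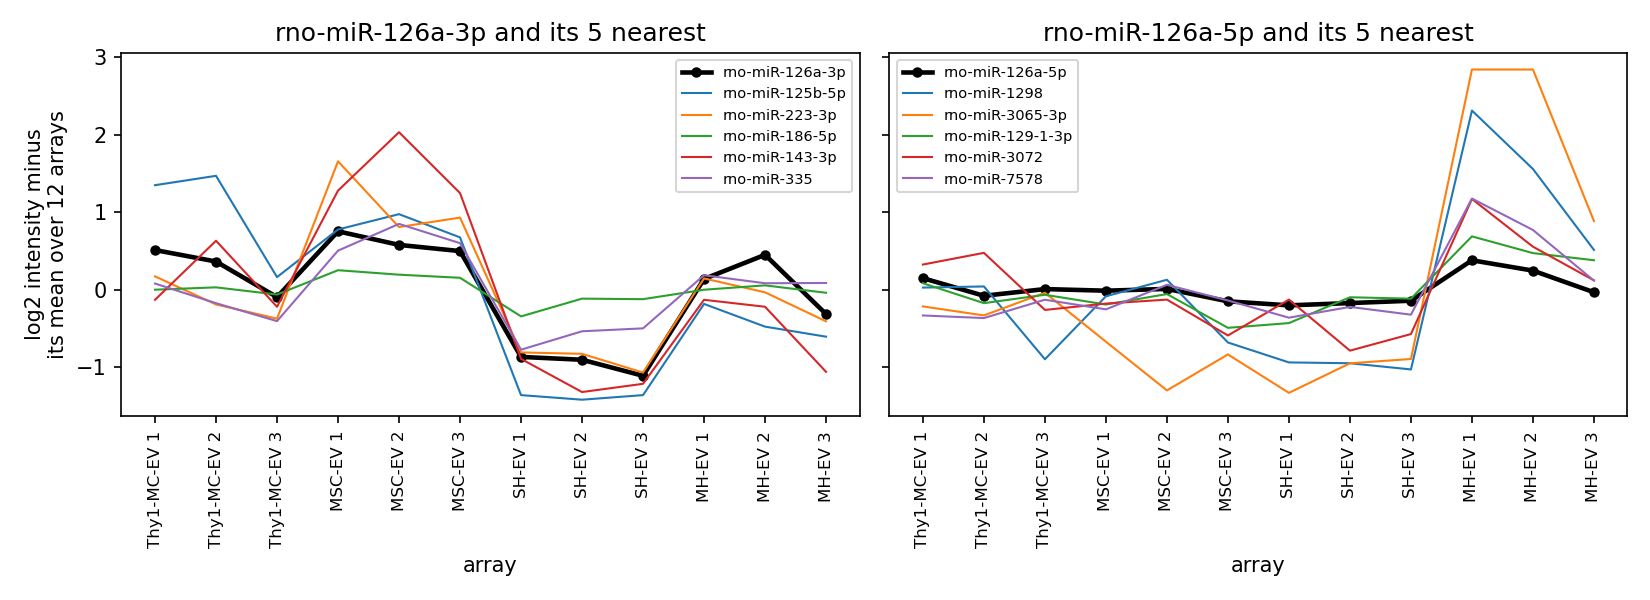
Log2 normalized intensity minus its mean over the 12 arrays for each arm (black) and the 5 miRNAs most correlated with it, by array; lines only join the arrays. The companions of the 3p arm were lowest in SH-EVs, and those of the 5p arm were highest in MH-EVs, both in part fixed by their choice for correlation. MH-EVs were the only group with the 5p arm detected on all arrays.

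Other miRNAs known to act in blood vessels were read from a list of 32, of which 27 were tested. From SH-EVs to Thy1-MC-EVs 1 rose and 6 fell, with a list median of -0.11 beside -0.00021 over all miRNAs, of which 6.46% rose and 7.49% fell. The one that rose was rno-miR-10a-5p, which acts in angiogenic sprouting in zebrafish, at 2.61 (standard error 0.21, adjusted p = 2.41e-05, limma). Among those that fell was rno-miR-19b-3p of the miR-17/92 cluster at -1.76 (standard error 0.19, adjusted p = 0.000185, limma). From SH-EVs to MSC-EVs 10 rose and 2 fell, with a median of 0.04 beside -0.09, where 12.1% of all miRNAs rose and 15.5% fell. They included rno-miR-146a-5p, which restrains inflammatory signalling, at 4.90 (standard error 0.27, adjusted p = 1.94e-07, limma) and rno-miR-221-3p, which targets Kit, at 3.48 (standard error 0.24, adjusted p = 2e-06, limma). From MSC-EVs to Thy1-MC-EVs 2 rose and 11 fell, with a median of -0.72 beside 0.08, where 12.7% of all miRNAs rose and 10.6% fell.

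Against MH-EVs the vascular list was read in the same way. From MH-EVs to SH-EVs 8 of the 27 rose and 6 fell, with a list median of 0.02 beside -0.06 over all miRNAs, of which 15% rose and 17.3% fell. From MH-EVs to Thy1-MC-EVs 9 rose and 4 fell, with a median of 0.02 beside -0.05, where 14.5% rose and 15.2% fell. From MH-EVs to MSC-EVs 15 rose and 5 fell, with a median of 0.90 beside -0.13, where 14.5% rose and 20.7% fell. The direction over all miRNAs turned with the scaling in these 3 comparisons, and so no direction of the list against MH-EVs can be given from its counts. From MH-EVs to MSC-EVs 56 of all miRNAs rose and 80 fell, against 214 and 39 with median scaling and 1 and 373 with the spike-in spots. From MH-EVs to SH-EVs the counts were 58 and 67, against 73 and 40 with the median and 0 and 360 with the spike-in spots, and from MH-EVs to Thy1-MC-EVs they were 56 and 59, 91 and 30, and 1 and 363. From SH-EVs to MSC-EVs the median also turned 47 and 60 to 42 and 22.

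Markers of other cells were read beside the 3p arm. Of the 5 erythroid and platelet miRNAs on the array, 4 were detected in each Thy1-MC-EV and MSC-EV sample, 2 in each SH-EV sample and 2 to 3 in MH-EVs. Of the 4 tested, 2 rose and 1 fell from SH-EVs to Thy1-MC-EVs, where 6.46% of all miRNAs rose and 7.49% fell. From SH-EVs to MSC-EVs 3 rose and 1 fell, where 12.1% rose and 15.5% fell. The one that fell in both was rno-miR-191a-5p, at -1.77 (adjusted p = 0.0317, limma) and -1.93 (adjusted p = 0.0116, limma). From MH-EVs to SH-EVs 1 rose and 1 fell, where 15% rose and 17.3% fell. rno-miR-451-5p, a miRNA of red cells, had an authors' normalized intensity of 409.7 to 697.5 in Thy1-MC-EVs and 549.3 to 750.9 in MSC-EVs, was detected on no SH-EV array and on 1 MH-EV array. rno-miR-144-3p, of the same cluster, was detected on all 6 arrays of the first pair of groups and on none of the others. The summed intensity of the list was 592 to 1276 in Thy1-MC-EVs, 646 to 963 in MSC-EVs, 301 to 847 in SH-EVs and 450 to 950 in MH-EVs. Most of the sum in SH-EVs and MH-EVs was rno-miR-191a-5p alone, at 294.5 to 841.4 and 386.7 to 915.7. In Thy1-MC-EVs and MSC-EVs rno-miR-191a-5p was at 71.4 to 539.4 and 50.5 to 161.1. rno-miR-144-5p was detected on no array.

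Of the 7 leukocyte miRNAs, 3 to 5 were detected in Thy1-MC-EVs, 4 in MSC-EVs, 3 to 4 in SH-EVs and 4 to 6 in MH-EVs, with sums of 71.3 to 148, 87.1 to 105, 76.2 to 101 and 221 to 423. rno-miR-223-3p was detected on all 12 arrays, at 3.3 to 6.9 in SH-EVs and 14.6 to 128.9 elsewhere. rno-miR-142-3p, a defining leukocyte miRNA, was detected on 1 Thy1-MC-EV array and 1 MH-EV array and was not tested. rno-miR-142-5p, the other arm of its hairpin, was detected on 2 Thy1-MC-EV arrays, 3 MSC-EV arrays, 3 MH-EV arrays and 0 SH-EV arrays. Its authors' normalized intensity was at most 10 in Thy1-MC-EVs, 21.2 to 35.9 in MSC-EVs and 5.1 to 13.1 in MH-EVs. Over SH-EVs its fitted difference was 0.65 in Thy1-MC-EVs (adjusted p = 0.00121, limma) and 2.22 in MSC-EVs (adjusted p = 2.89e-08, limma), and SH-EVs over MH-EVs gave -0.37 (adjusted p = 0.0122, limma). Like the 3p arm, it was above the detection limit on no SH-EV array. Of the 4 leukocyte miRNAs tested, 1 rose and 0 fell from SH-EVs to Thy1-MC-EVs, where 6.46% of all miRNAs rose and 7.49% fell. From SH-EVs to MSC-EVs 2 rose and 1 fell, where 12.1% rose and 15.5% fell. The one that fell was rno-miR-150-3p, at -0.72 (adjusted p = 0.0327, limma). From MH-EVs to SH-EVs 0 rose and 2 fell, where 15% rose and 17.3% fell. The part of red cells, platelets and leukocytes in the 3p arm was not tested.

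Of the 6 mesenchymal miRNAs tested, 4 rose from SH-EVs to Thy1-MC-EVs and 4 rose from SH-EVs to MSC-EVs, with list medians of 1.22 and 1.95, where 6.46% and 12.1% of all miRNAs rose. From MH-EVs to SH-EVs 0 rose and 0 fell, with a median of -0.21, where 15% of all miRNAs rose and 17.3% fell. From MH-EVs 3 rose and 0 fell to Thy1-MC-EVs, and 4 rose and 0 fell to MSC-EVs. In both 14.5% of all miRNAs rose, and these counts depend on the scaling. The sum of the list was 346 to 2171 in Thy1-MC-EVs, 245 to 1046 in MSC-EVs, 166 to 295 in SH-EVs and 606 to 1406 in MH-EVs. Of the 6 hepatocyte miRNAs all were lower in Thy1-MC-EVs and in SH-EVs than in MH-EVs, and 5 were lower in MSC-EVs, with list medians of -3.85, -3.02 and -4.34, where 15.2%, 17.3% and 20.7% of all miRNAs were lower. Of these, rno-miR-122-5p was at 10398 to 28488 in MH-EVs against 23.6 to 675.6 elsewhere. The MH-EV arrays that held the 3p arm thus carried the hepatocyte miRNAs of their label, and the endothelial list consisted of the 3 members alone, so no other endothelial marker was read beside them.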

How the data were processed

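EV miRNA was measured on 12 single-colour (Cy3) arrays, 3 per source. Per array the authors deposited the raw intensity, a background-subtracted intensity and a normalized intensity of 727 miRNA probes (1 spot each), the last 2 empty where a probe was not detected. Of 8724 probe values 6 lay outside the detection rule given above. A combined table repeats the normalized intensity within 0.05. The scanner is not given in the sources used here.

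Raw intensities were corrected by normexp (offset 50) against the blank-spot mean, fitted on all spots of an array, quantile-normalized and taken to log2 in limma 3.58.1 (R 4.3.3). This compresses dim probes, so log2 differences understate their changes. How normexp is fitted was settled after 6 ways had been tried and the values of both arms had been seen. The other 5 are kept as alternatives, and 1 of them ends the call of the 5p arm between SH-EVs and MH-EVs. The 2 flagged values were left out. Probes detected on all 3 arrays of at least 1 group were tested with lmFit and eBayes, 1 mean per group over all 12 arrays, in 6 comparisons and an F test, with Benjamini-Hochberg adjustment over 387 miRNAs at 0.05. A planned test of the change in the difference between the arms is void, since the 5p arm was detected on 4 of 12 arrays, and is not reported. The methods name a t-test, run as an alternative. The model was checked on simulated data. With 3 arrays per group their number limits the precision.

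The members, lists and settings were chosen with earlier results of these data known. The text names the members, the 5 miRNAs most correlated with each arm, up to 4 list members per comparison by adjusted p, and the array miRNA nearest in sequence to each arm. The defining markers rno-miR-144-5p and rno-miR-142-3p are named for their detection only.

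Replicate numbers come from the labels and no source says what they mark. Arrays with the same number deviated together in all 3 pairs for Thy1-MC-EVs against MH-EVs (correlations of 0.32, 0.20 and 0.33), where the block changed no call of either arm, and at least 1 pair stayed under 0.1 in every other comparison.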

Additional observations from a re-analysis of the deposited data

How the results depend on the processing

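The difference of the 3p arm from SH-EVs kept its direction under all alternatives run. With detection set by the spots without a probe, the 5p arm was not tested and has no value. A change of sign is counted only where the main or the other value passed. Causes were not tested. With median scaling over the miRNAs detected on all arrays, the 3p arm gave 1.21 (Thy1-MC-EVs over SH-EVs, lost), -0.69 (SH-EVs over MH-EVs, lost) and 1.01 (MSC-EVs over MH-EVs, passed), and the 5p arm gave 0.25 (SH-EVs over MH-EVs) and 1.08 (MSC-EVs over MH-EVs), both turned. The same values came from fitting only the arrays compared, added after seeing the data. The 75th percentile gave 0.91, -0.27 and 1.37 for the 3p arm and 0.67 and 1.44 for the 5p arm, in the same order and with the same outcomes. Without normalization the 3p arm gave 1.03 for Thy1-MC-EVs over SH-EVs and the 5p arm -0.36 for SH-EVs over MH-EVs, both lost.

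Spike-in scaling gave 1.08 (Thy1-MC-EVs) and 0.89 (MSC-EVs) over SH-EVs for the 3p arm, both lost, and -2.34 and -2.53 over MH-EVs, both turned. For the 5p arm it gave -2.29 (Thy1-MC-EVs) and -2.47 (MSC-EVs) over MH-EVs and an F of 55.2, all passed. With this scaling 364 and 374 of the 387 miRNAs passed in these comparisons with MH-EVs. Relative to the median change of all miRNAs the 3p arm was at -0.11 and 0.07, and the 5p arm at -0.07 and 0.13. The 5p arm entered the test through MH-EVs alone. Its passes against MH-EVs and in the F test, here and below, are therefore descriptions and not results. The authors' normalized intensities gave -1.48 and -1.59 for the 3p arm over MH-EVs, both turned, and -1.80, -1.61 and an F of 5.63 for the 5p arm, all passed. Plain subtraction gave -2.28 for the 5p arm of MSC-EVs over MH-EVs and an F of 6.39, and array weights gave -0.29 (Thy1-MC-EVs), -0.36 (MSC-EVs) and an F of 7.23, all passed. The 5p call for SH-EVs over MH-EVs (-0.37) was lost with only the arrays compared and with the methods' t-test after Benjamini-Hochberg. It was also lost with normexp estimated from the untrimmed blank spots (-0.31, adjusted p = 0.0528, limma), 1 of the 5 other normexp fits, which were seen before the main one was chosen; over those 5 the adjusted p was 0.0433 to 0.0528. That t-test after adjustment also lost the 3p calls of 1.22 (Thy1-MC-EVs over SH-EVs) and -1.05 (SH-EVs over MH-EVs), and unadjusted it passed the 5p arm at 0.20 for Thy1-MC-EVs over SH-EVs. The replicate block passed the 3p arm of MSC-EVs over MH-EVs, at 0.52, in a comparison whose numbers did not pair, and it changed no other call of either arm.

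Leaving out 1 array in turn gave 0.32 to 0.70 for the 3p arm of MSC-EVs over MH-EVs (passed without MH-EV replicate 2). For the 5p arm it gave -0.49 to -0.28 for SH-EVs over MH-EVs, lost without Thy1-MC-EV replicate 2 or 3, any SH-EV replicate, or MH-EV replicate 1 or 2. It gave -0.36 to -0.16 for MSC-EVs over MH-EVs and an F of 1.64 to 5.39, both passed without MH-EV replicate 3. For Thy1-MC-EVs over SH-EVs the miRNAs that passed numbered 29 to 74, moving by over 1.5 times without Thy1-MC-EV replicate 1 or 2 or SH-EV replicate 2 or 3.

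Counts of miRNAs that passed also moved by over 1.5 times. Between Thy1-MC-EVs and SH-EVs 54 passed, and 33 with plain subtraction, 24 with the median (23 with only the arrays compared), 22 with the 75th percentile, 6 without normalization, 5 with spike-in scaling, 133 with array weights and 18 and 103 with the t-test, adjusted and unadjusted. Between Thy1-MC-EVs and MH-EVs 115 passed, and 364 with spike-in scaling, 226 with the authors' intensities and 74 with the adjusted t-test. Between Thy1-MC-EVs and MSC-EVs 90 passed, and 38 (36) with the median, 30 with the 75th percentile, 42 with cyclic loess, 10 without normalization, 31 with spike-in scaling and 23 with the adjusted t-test. Between SH-EVs and MH-EVs 125 passed, and 79 without normalization, 360 with spike-in scaling, 232 with the authors' intensities, 205 with array weights and 75 with the adjusted t-test. Between MSC-EVs and SH-EVs 107 passed, and 64 (55) with the median, 50 with the 75th percentile, 70 with cyclic loess, 47 without normalization, 49 with spike-in scaling and 57 with the adjusted t-test. Between MSC-EVs and MH-EVs 136 passed, and 253 (258) with the median, 264 with the 75th percentile, 374 with spike-in scaling, 263 with the authors' intensities and 88 with the adjusted t-test. The split of higher and lower calls for Thy1-MC-EVs over MH-EVs was 56 to 59, 91 to 30 with the median, 1 to 363 with the spike-in spots and 9 to 217 with the authors' intensities. The median change of all miRNAs there moved from -0.05 to 0.64, -2.22 and -1.40.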
